A study of Mus musculus with 8 samples.

Results

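The genes described here are 34 named enzymes, transporters and regulators of mitochondrial and peroxisomal fatty acid oxidation, chosen by symbol. Probe sets annotated to exactly 1 of these symbols were found for 32 of the 34, among 22180 genes measured in all, and where a gene had more than 1 such probe set (only Crat) the brighter was used. Cpt1b and Acot8 had no probe set of their own and are not analysed here. By their known location 20 of the 34 are mitochondrial (19 measured) and 10 peroxisomal (9 measured). Crat and Eci2 are known from both compartments, Acot1 is cytosolic and Ppara encodes a nuclear receptor.

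Fatty acid oxidation breaks the fatty acyl chain down to acetyl-CoA in repeated turns of dehydrogenation, hydration, a further dehydrogenation and thiolytic cleavage. In mitochondria the electrons of the first step go to the respiratory chain and long chains enter through the carnitine shuttle, whereas peroxisomes shorten very long, branched and dicarboxylic chains with an oxidase that passes electrons to oxygen. In white fat the pathway runs beside a far larger flux of fatty acids into and out of triglyceride, and many of its genes are known targets of the fatty acid receptors of the PPAR family, which bind DNA together with RXR.

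Values come from epididymal white adipose tissue (eWAT, the visceral fat pad beside the epididymis) of 5 male Abhd15 KO mice and 3 male WT mice, all C57BL/6J, 14 weeks old and fed normal chow, with 1 array per mouse. All 8 mice had been fasted overnight and refed chow for 1 h before the tissue was frozen. How the Abhd15 allele was made is not stated in the labels. Every level below is the deposited log2 signal of a probe set, and every fold change is KO minus WT on the log2 scale. Levels of different genes are not set against each other, because each probe set has its own response.

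Abhd15 itself read 5.77, 6.07, 6.27, 5.60 and 5.75 in KO 1 to KO 5, against 6.36, 6.45 and 6.15 in WT 1 to WT 3. KO 3 lay inside the WT range, and the labels do not say where the probes lie relative to the change in the gene, so this reading does not check the genotypes. Its fold change was -0.43 (SE 0.170, adjusted p = 0.423). Adipocyte markers were well above the level filter in every array, whereas 6 of 8 skeletal muscle markers lay below it. Of 7 brown and beige adipocyte markers 3 lay below it, among them the uncoupling protein Ucp1 (2.60 to 3.31 in KO, 2.78 to 3.60 in WT). Of the 4 tested, 3 were higher in KO, with a median fold change of 0.42. Below the filter, Ucp1 (-0.16) and Elovl3 (-0.65) read lower in KO and Dio2 (0.19) higher. The lipid droplet gene Cidea read 5.41, 5.14, 4.05, 3.91 and 4.11 in KO 1 to KO 5, against 3.59, 3.77 and 3.38 in WT 1 to WT 3, without overlap (0.95, SE 0.344, adjusted p = 0.376). The Cidea WT mean (3.58) lay below the level filter, so it was tested only through its KO arrays (mean 4.52). The respiratory chain subunit Cox8b read 6.11, 5.64, 4.81, 5.01 and 4.51 in KO, against 4.87, 4.39 and 4.76 in WT (0.54, SE 0.328). The mean of 7 adipocyte markers was 10.2 to 10.9 in KO, lowest in KO 5, and 10.6 to 10.7 in WT. Transcripts of the male reproductive tract stood out in some arrays. The mean of 7 germ cell markers reached 4.82 in KO 4, against 6.36 in WT 1 and 5.26 in WT 2, with 3.31 to 3.79 in the other arrays. For 7 epididymis and seminal vesicle markers the mean stood at 4.52 in KO 4, against 4.47 in WT 1, with 1.89 to 2.41 elsewhere. Different genes gave these means. In KO 4 they were Adam7 (10.2), Lcn5 (8.56) and Defb20 (4.68), and in WT 1 Svs2, Svs4, Svs5 and Svs6 (5.2 to 7.4). Adam7 also read 4.93 in KO 3 and 3.73 in KO 5, and Svs5 read 4.51 in WT 2. In bulk tissue fewer cells of a type and less RNA per cell cannot be told apart.

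No fatty acid oxidation gene passed the threshold of 0.05 after Benjamini-Hochberg adjustment in limma, where none of the 11090 genes tested did (0%). Of the 31 members at or above the level filter (a mean log2 signal of 3.61, the median gene), 18 had a positive and 13 a negative fold change. At an unadjusted p under 0.05, 5 of 31 members read higher in KO and 0 read lower, where 4.04% of all tested genes read higher and 6.46% lower (10.5% in either direction). The 5 were the dehydrogenases Acadm and Hadh, the electron transfer gene Etfdh, and the peroxisomal genes Acaa1b and Decr2. The count depended on the setting. It was 10 with the replicate number as a block, all higher in KO, where 18% of all genes were under that p. In that fit KO 4 and KO 5 have no WT partner and do not enter the fold change. The block fold change is thus that of KO 1 to KO 3 against WT 1 to WT 3. The count was 9 with each array centred on its median over the tested genes, all higher in KO (10.5% of all genes). With each array centred on its median over all single-symbol probe sets it was 0 (9.98% of all genes). Of all genes at an unadjusted p under 0.05, 38.5% were higher in KO in the values as deposited and 48.7% after centring on the tested genes. Leaving out KO 1, KO 3 or WT 3 gave 0 members, where 9.7%, 10.4% and 8.2% of all genes were under that p. Leaving out KO 4 gave 5 members (10.8% of all genes) and leaving out KO 5 gave 8 (14.4%), all higher in KO. Without WT 1 there were 2 (Acaa1b and Hadha, higher; 6.72% of all genes). Without KO 2 there was only Crat (8.03%) and without WT 2 only Ehhadh (8.64%), both lower in KO.

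**Figure D1:**
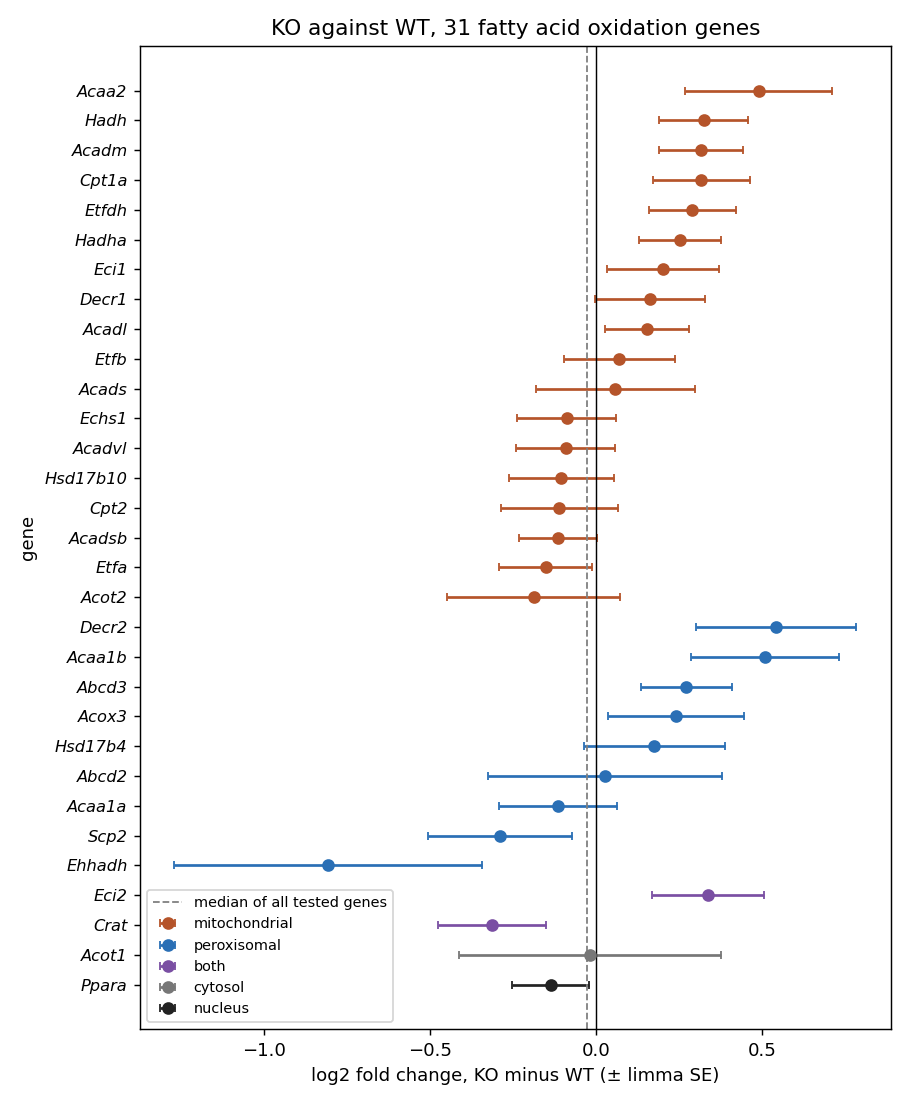
The log2 fold change (x axis, KO minus WT) of 31 genes (y axis), with bars of 1 limma standard error, coloured by compartment. The dashed line is the median of all 11090 tested genes, -0.03. In both compartments points lie on either side of 0, from -0.81 for Ehhadh to 0.54 for Decr2.

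Promoter sequences of the 3 members whose KO and WT arrays did not overlap are shown before their values, because many genes of this pathway are known to be controlled through nuclear receptor sites. RefSeq promoter windows (GRCm38.p6) were matched by symbol for 28 of the 34 members, in 29 windows, and the 250 bases before each annotated start were searched on both strands. The hexamer AGGTCA, to which nuclear receptors such as the PPAR and RXR partners bind, was in 5 of 29 windows (17.2%: Acadm, Acadvl, Cpt1a, Echs1 and Scp2), against 14% of all 32851 windows. A direct repeat, AGGTCA followed by any 1 base and a second AGGTCA, was in 0 of 29 windows and in 0.0335% of all. The GC box GGGCGG was in 20 of 29 windows (69%), against 32.7% of all. By their letters AGGTCA and GGGCGG cannot overlap, while the direct repeat contains AGGTCA. The 250 bases before the start of Acadm, Cpt1a and Hadh follow, each on the gene's own strand, with AGGTCA and GGGCGG in capitals (TGACCT and CCGCCC where they lie on the opposite strand). Acadm lies on the minus strand at chr3:153944644-153944893, Cpt1a on the plus strand at chr19:3323051-3323300 and Hadh on the minus strand at chr3:131272102-131272351.
Acadm: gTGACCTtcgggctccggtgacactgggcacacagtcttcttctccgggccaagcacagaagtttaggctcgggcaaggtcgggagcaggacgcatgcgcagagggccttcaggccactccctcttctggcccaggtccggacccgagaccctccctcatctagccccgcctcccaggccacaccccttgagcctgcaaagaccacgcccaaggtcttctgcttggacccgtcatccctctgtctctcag
Cpt1a: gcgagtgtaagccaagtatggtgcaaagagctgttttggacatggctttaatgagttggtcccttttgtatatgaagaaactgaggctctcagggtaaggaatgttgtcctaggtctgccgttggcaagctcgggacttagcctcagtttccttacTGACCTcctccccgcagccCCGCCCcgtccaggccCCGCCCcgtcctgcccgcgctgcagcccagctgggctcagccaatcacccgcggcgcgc
Hadh: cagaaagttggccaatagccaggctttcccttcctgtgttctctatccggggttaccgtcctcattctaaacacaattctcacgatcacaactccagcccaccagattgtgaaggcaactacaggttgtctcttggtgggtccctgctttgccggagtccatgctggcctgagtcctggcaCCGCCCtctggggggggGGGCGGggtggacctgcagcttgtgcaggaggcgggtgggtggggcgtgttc
The Acadm window held AGGTCA once, 249 bases before the start, and no GC box. That of Cpt1a held AGGTCA once, 94 bases before the start, and 2 GC boxes, and that of Hadh held 2 GC boxes and no AGGTCA.

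The carnitine shuttle carries long acyl chains into mitochondria. Its gatekeeper on the outer membrane, inhibited by malonyl-CoA, is carnitine palmitoyltransferase 1, whose liver form is Cpt1a. Cpt1a read 8.09, 8.19, 7.90, 7.84 and 7.93 in KO 1 to KO 5, against 7.38, 7.81 and 7.82 in WT 1 to WT 3. Every KO array lay above every WT array, KO 4 by the smallest margin, and WT 1 was the lowest. The fold change was 0.32 (SE 0.147, adjusted p = 0.484 in limma, exact permutation p = 0.0357, the smallest the design allows), and 0.17 without WT 1. Groups that did not overlap occurred for 3 of 31 members (Cpt1a, Acadm and Hadh, all with KO above), where 8.53% of all tested genes had such groups, 2.99% with KO above and 5.54% with KO below. Cpt2, the inner-membrane partner that re-forms acyl-CoA, averaged 8.30 ± 0.214 in KO (SD, n = 5) and 8.41 ± 0.312 in WT (SD, n = 3), with overlapping groups and the highest reading in WT 1 (8.77). Its fold change was -0.11, and 0.07 without WT 1. Crat, carnitine acetyltransferase, which buffers acetyl-CoA in mitochondria and peroxisomes, read 9.963, 10.004, 9.778, 9.414 and 9.583 in KO 1 to KO 5, against 10.225, 9.995 and 9.968 in WT. Its fold change was -0.31 (SE 0.162, adjusted p = 0.527), with 4 of 5 KO arrays below all WT arrays. The dimmer Crat probe set (mean 5.05) gave 4.40 to 5.45 in KO and 5.06 to 5.21 in WT.

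The acyl-CoA dehydrogenases start each mitochondrial turn and divide the work by chain length. Acadm, the medium-chain enzyme, read 10.82, 10.78, 10.84, 10.46 and 10.70 in KO 1 to KO 5, against 10.40, 10.44 and 10.37 in WT 1 to WT 3. The 3 WT arrays lay close together and every KO array lay above them, KO 4 by a small margin. The fold change was 0.32 (SE 0.126, adjusted p = 0.423, exact permutation p = 0.0357), a 1.25-fold difference. Acadl, the long-chain enzyme, averaged 10.1 ± 0.157 in KO (SD, n = 5) and 9.98 ± 0.0142 in WT (SD, n = 3), with KO 4 and KO 5 level with the WT arrays and the other KO arrays above them. Acadvl, the very-long-chain enzyme of the inner membrane, averaged 7.98 ± 0.116 in KO and 8.07 ± 0.285 in WT (SD, n = 5 and 3), and was highest in WT 1 (8.40). The Acadvl fold change was -0.09, and 0.07 without WT 1. The short-chain enzyme Acads ranged from 7.23 in KO 5 to 8.37 in KO 2, against 7.66 to 7.96 in WT, with a fold change of 0.06 (SE 0.240). Acadsb, which acts on short branched chains from isoleucine, averaged 9.02 ± 0.122 in KO and 9.13 ± 0.0329 in WT (SD, n = 5 and 3), with 4 of 5 KO arrays below all WT arrays (adjusted p = 0.772).

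Electrons from these dehydrogenases pass through the flavoprotein ETF, made of the Etfa and Etfb subunits, to the ubiquinone reductase encoded by Etfdh. Etfdh read 8.97, 9.01, 8.97, 8.62 and 8.89 in KO 1 to KO 5, against 8.70, 8.52 and 8.58 in WT 1 to WT 3. All KO arrays except KO 4 lay above the WT range, and the fold change was 0.29 (SE 0.130, adjusted p = 0.474). The ETF subunits themselves had fold changes of -0.15 (Etfa, SE 0.141) and 0.07 (Etfb, SE 0.168), with overlapping groups. Etfa read 9.997, 9.943, 9.746, 9.730 and 9.507 in KO 1 to KO 5, against 10.048, 9.930 and 9.831 in WT.

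The later steps of the mitochondrial turn are shared between the trifunctional protein for long chains, made of Hadha and Hadhb, and separate matrix enzymes for shorter ones. Hadh, the medium- and short-chain 3-hydroxyacyl-CoA dehydrogenase, read 11.05, 11.11, 10.93, 10.87 and 10.69 in KO 1 to KO 5, against 10.46, 10.68 and 10.67 in WT 1 to WT 3. The groups did not overlap, but KO 5 lay barely above WT 2. The fold change was 0.32 (SE 0.135, adjusted p = 0.442, exact permutation p = 0.0357). Acaa2, the thiolase that ends the turn, had the highest fold change of the 18 tested mitochondrial genes, 0.49 (SE 0.222, adjusted p = 0.478). It read 8.69, 8.61, 8.23, 8.20 and 7.70 in KO 1 to KO 5, against 7.53, 7.94 and 7.91 in WT, so that KO 5 fell within the WT range. With the replicate block the Acaa2 fold change was 0.71, at an unadjusted p under 0.05 (adjusted p = 0.168). Echs1, the enoyl-CoA hydratase, averaged 9.30 ± 0.225 in KO and 9.39 ± 0.0834 in WT (SD, n = 5 and 3). Hsd17b10, a dehydrogenase that also serves in mitochondrial tRNA processing, averaged 7.73 ± 0.256 in KO and 7.83 ± 0.0569 in WT, and both had overlapping groups.

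Hadha, the subunit with the hydratase and long-chain dehydrogenase activities, read 9.61, 9.57, 9.43, 9.33 and 9.56 in KO 1 to KO 5, against 9.38, 9.21 and 9.14 in WT 1 to WT 3. Of the KO arrays only KO 4 reached into the WT range, and the fold change was 0.25 (SE 0.123, adjusted p = 0.504). Hadhb, the thiolase subunit of the same complex, read 2.59 to 3.39 in KO and 2.93 to 3.15 in WT. It was the only measured member below the level filter, so it was left out of the fit. These genes lie head to head on chromosome 5, and the 272 bases between their annotated starts, chr5:30154981-30155252 (GRCm38.p6, RefSeq), are shown on the plus strand, from the Hadha side to the Hadhb side, because both transcripts leave from this stretch. GC boxes are in capitals.
Hadha and Hadhb: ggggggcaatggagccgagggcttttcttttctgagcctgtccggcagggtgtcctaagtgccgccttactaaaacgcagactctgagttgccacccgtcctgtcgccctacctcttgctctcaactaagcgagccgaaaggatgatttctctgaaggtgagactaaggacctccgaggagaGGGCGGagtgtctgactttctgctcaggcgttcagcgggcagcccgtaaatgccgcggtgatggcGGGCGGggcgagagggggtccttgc
The stretch held 2 GC boxes and no AGGTCA. The Hadhb reading is thus a low signal of 1 probe set whose partner gene, across this shared stretch, was measured well above the filter, and what this probe set detects was not tested.

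Unsaturated chains need auxiliary isomerases and reductases. Eci1, the mitochondrial enoyl-CoA isomerase, read 8.48, 8.38, 8.47, 8.12 and 7.81 in KO 1 to KO 5, against 8.02, 8.06 and 8.07 in WT 1 to WT 3. It lay above the WT range in 4 KO arrays and below it in KO 5 (fold change 0.20, SE 0.168). Eci2, the isomerase of both compartments, had the same layout, with 7.521, 7.554, 7.689, 7.276 and 6.959 in KO 1 to KO 5, against 7.078, 6.996 and 7.113 in WT, and a fold change of 0.34 (SE 0.169, adjusted p = 0.518). With the replicate block, in which KO 4 and KO 5 have no WT partner, both came under an unadjusted p of 0.05, at 0.39 for Eci1 (adjusted p = 0.202) and 0.53 for Eci2 (adjusted p = 0.150). Decr1, the mitochondrial dienoyl-CoA reductase, averaged 6.93 ± 0.256 in KO (SD, n = 5) and 6.76 ± 0.154 in WT (SD, n = 3), with overlapping groups. Its peroxisomal counterpart Decr2 read 7.48, 7.48, 7.12, 6.63 and 6.51 in KO 1 to KO 5, against 6.60, 6.60 and 6.31 in WT 1 to WT 3. KO 1, KO 2 and KO 3 lay well above WT, KO 4 just above and KO 5 inside. The fold change of Decr2, 0.54 (SE 0.242, adjusted p = 0.471, exact permutation p = 0.143), was the highest of the 31 tested members, and was 0.25 without KO 1 and KO 2 and 0.86 with the replicate block (adjusted p = 0.107).

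**Figure D2:**
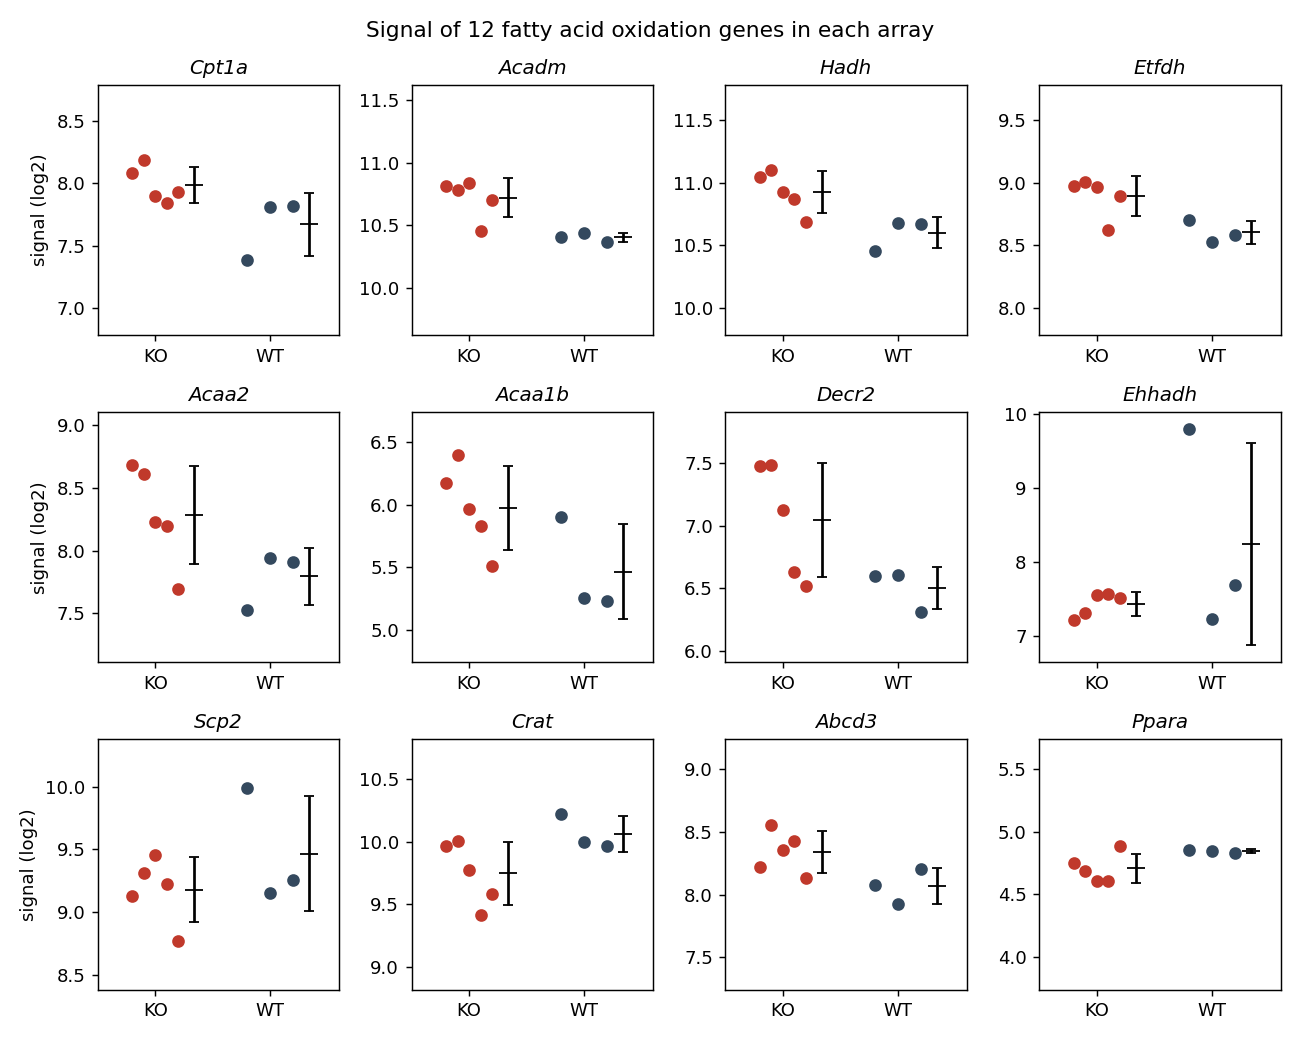
Log2 signal (y axis) of 12 genes in each array, with the 5 KO mice in red at the left and the 3 WT mice in dark blue at the right of each panel, in order of replicate number. Bars give the group mean ± SD, and each panel has its own y range. Cpt1a, Acadm and Hadh show no overlap between groups, and WT 1 stands high in Ehhadh (9.79) and Scp2 (9.99).

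Peroxisomes take up acyl-CoA through half-transporters of the ABCD family. Abcd2, a transporter abundant in fat, read 11.40, 11.55, 11.21, 10.64 and 9.81 in KO 1 to KO 5, against 10.63, 10.99 and 11.07 in WT 1 to WT 3 (fold change 0.03, SE 0.352). KO 1, KO 2 and KO 3 lay above all WT arrays, KO 4 near the lowest of them and KO 5 below. With the replicate block the fold change was 0.49, at an unadjusted p under 0.05 (adjusted p = 0.221), and without KO 2 it was -0.13. Abcd3, also known as PMP70, read 8.22, 8.56, 8.36, 8.43 and 8.14 in KO, against 8.08, 7.92 and 8.20 in WT. Of the KO arrays only KO 5 reached into the WT range, and the fold change was 0.27 (SE 0.137, adjusted p = 0.518). Acox3, an acyl-CoA oxidase of branched chains, averaged 6.40 ± 0.373 in KO and 6.16 ± 0.134 in WT (SD, n = 5 and 3), and its highest reading was 7.04 in KO 4.

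The next peroxisomal steps fall to the bifunctional proteins encoded by Ehhadh and Hsd17b4. Ehhadh read 7.22, 7.31, 7.55, 7.56 and 7.51 in KO 1 to KO 5, against 9.79, 7.23 and 7.69 in WT 1 to WT 3. The array of WT 1 was 4.29-fold above the next highest array, the fifth largest such excess of WT 1 among the 11090 tested genes, while WT 2 and WT 3 lay among or next to the KO arrays. The fold change of -0.81 (SE 0.463, adjusted p = 0.567, exact permutation p = 0.286), the lowest of the 31, was -0.03 without WT 1. Hsd17b4, which also acts on branched chains and bile acid precursors, averaged 9.18 ± 0.394 in KO and 9.01 ± 0.111 in WT (SD, n = 5 and 3), from 8.60 in KO 5 to 9.63 in KO 2. Its fold change was 0.18 (SE 0.212), 0.42 with the replicate block, at an unadjusted p under 0.05 (adjusted p = 0.232), and 0.06 without KO 2.

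Among the peroxisomal thiolases, Acaa1b read 6.17, 6.40, 5.96, 5.83 and 5.52 in KO 1 to KO 5, against 5.91, 5.26 and 5.24 in WT 1 to WT 3. All KO arrays lay above WT 2 and WT 3, and WT 1 lay among the KO arrays. The fold change was 0.51 (SE 0.224, adjusted p = 0.462, exact permutation p = 0.107), and 0.73 without WT 1. Its close paralog Acaa1a, on the same chromosome 9, had a fold change of -0.12 (SE 0.178), with 5.79 to 6.51 in KO and 6.01 to 6.32 in WT. How far the probes of such paralogs tell them apart was not tested. Scp2, a thiolase of branched chains whose locus also encodes a sterol carrier, read 9.13, 9.32, 9.46, 9.22 and 8.77 in KO 1 to KO 5, against 9.99, 9.15 and 9.26 in WT 1 to WT 3. Its fold change of -0.29 (SE 0.218, adjusted p = 0.677) was -0.03 without WT 1.

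The acyl-CoA thioesterases release free fatty acid from CoA. Acot2, the mitochondrial form, read 9.21, 9.36, 8.71, 8.24 and 8.75 in KO 1 to KO 5, against 9.46, 8.74 and 8.92 in WT, and the groups overlapped (fold change -0.19, SE 0.260). Without WT 1, the highest array, the Acot2 fold change was 0.02. The cytosolic paralog Acot1, beside it on chromosome 12, ranged from 3.50 to 5.03 in KO and from 3.60 to 4.96 in WT (fold change -0.02, SE 0.395). Ppara, the nuclear receptor that drives oxidation genes in liver, read 4.75, 4.68, 4.61, 4.60 and 4.89 in KO 1 to KO 5, against 4.86, 4.85 and 4.83 in WT 1 to WT 3. The WT arrays lay close together, 4 of 5 KO arrays lay below them and KO 5 above (fold change -0.14, SE 0.117, adjusted p = 0.714).

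Of 18 tested mitochondrial genes 11 were higher and 7 lower in KO, with a median fold change of 0.11 and a middle range (quartiles) of -0.10 to 0.28. Of 9 tested peroxisomal genes 6 were higher and 3 lower, with a median of 0.18 and quartiles of -0.12 to 0.27. Over all 11090 tested genes the median was -0.03, with quartiles of -0.18 to 0.13, and 44.8% were higher. The mitochondrial median minus the peroxisomal one was -0.06, with a spread of 0.139 (SD of the difference between the compartments' median deviations within the KO and WT groups, pooled). It lay between -0.12 (without KO 5) and 0.07 (without KO 4) over the alternatives, so that which compartment had the higher median depended on the arrays included. Peroxisomal fold changes spanned the wider range, -0.81 to 0.54, against -0.19 to 0.49 for mitochondrial ones, and the lower end was Ehhadh, set by WT 1. Counting Crat and Eci2 with either compartment left both medians at 0.11 and 0.18. No test over the members was made.

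**Figure D3:**
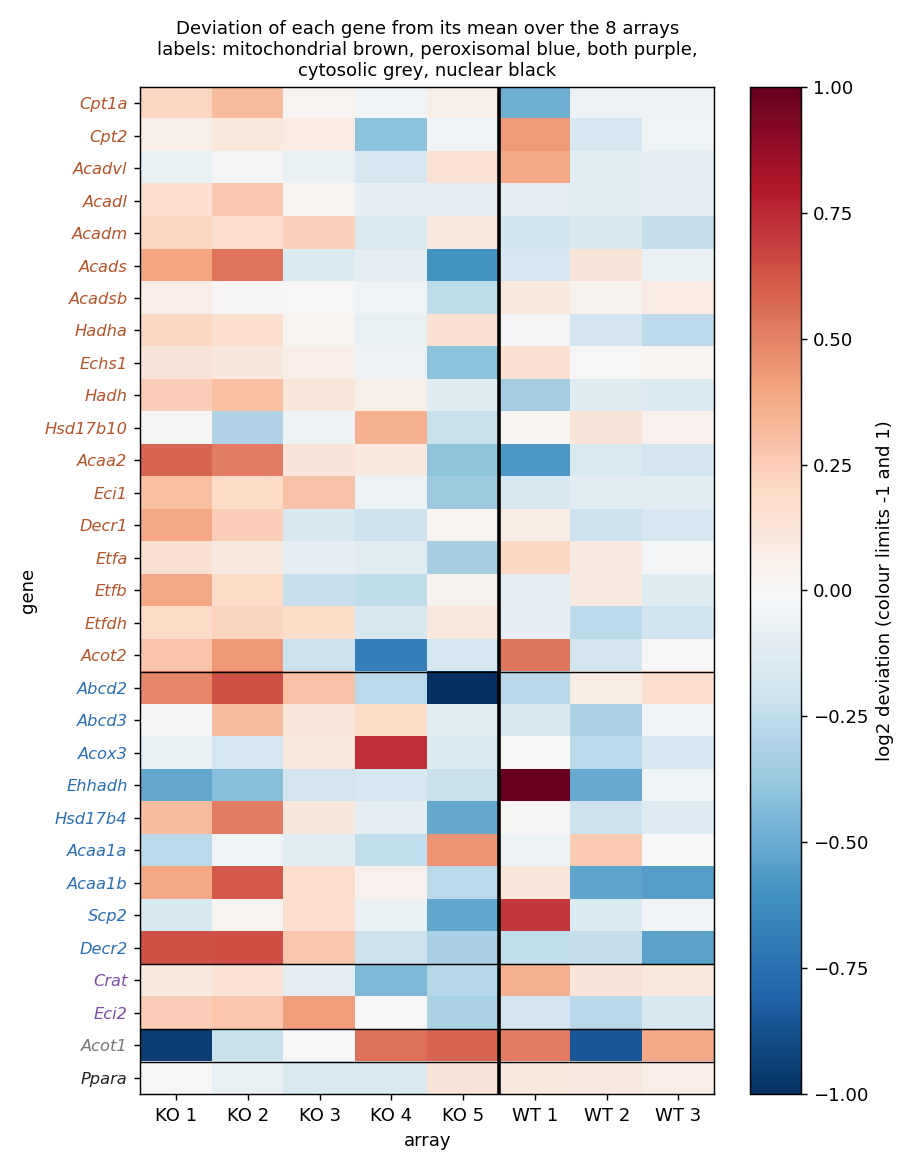
Deviation of each of 31 genes (rows, ordered by compartment and step) from its own mean over the 8 arrays (columns, KO left of the line and WT right), in log2 units, with colours limited at -1 and 1. Red is above and blue below the gene's mean. KO 1 and KO 2 are mostly red among the mitochondrial genes, and Ehhadh and Scp2 are deep red in WT 1.

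The KO mice differed among themselves. The median deviation of the mitochondrial genes from their means was 0.21 in KO 1, 0.20 in KO 2, 0.03 in KO 3, -0.09 in KO 4 and -0.10 in KO 5, against -0.05, -0.11 and -0.09 in WT 1 to WT 3. That of the peroxisomal genes was -0.02, 0.32, 0.12, -0.10 and -0.27 in KO 1 to KO 5, against -0.01, -0.24 and -0.04 in WT. KO 4 lay within the range of the WT arrays in both compartments, and KO 5 within it for mitochondrial and below it for peroxisomal genes. Over all tested genes these medians ran from -0.09 (KO 5) to 0.05 (KO 1). KO 2 was the highest of the 8 arrays for 10 of 31 members (11.8% of all tested genes) and KO 1 for 5 (17.3%), against 9 for WT 1 (18.1%). KO 5 was the lowest for 9 (28.9% of all tested genes) and KO 4 for 6 (10.7%). Without KO 1 and KO 2 the median fold change was -0.02 for mitochondrial and -0.04 for peroxisomal genes, and for all tested genes it was -0.05. Without KO 1 alone the mitochondrial median was 0.03, and without KO 2 alone both medians were lower than with all arrays (0.07 for mitochondrial and 0.06 for peroxisomal genes). Without KO 5 the peroxisomal median was 0.30.

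Fat cell markers also differed between these arrays, but not all in the same way. Of 7 tested adipocyte markers 1 was higher and 6 were lower in KO, with a median fold change of -0.12. The mean of the adipocyte markers was 10.9, 10.8, 10.5, 10.4 and 10.2 in KO 1 to KO 5, against 10.6, 10.7 and 10.7 in WT 1 to WT 3, highest in KO 1 and KO 2. The lipid droplet coat gene Plin1 read 10.52, 10.58, 9.72, 9.01 and 9.42 in KO 1 to KO 5, against 9.88, 10.17 and 10.22 in WT. Lipe was also highest in KO 2 and Lep in KO 1, whereas Adipoq, Cidec and Pnpla2 were highest in WT 1 and Retn in WT 2. Among 7 brown and beige adipocyte markers, Cidea and Cox8b were highest in KO 1 and KO 2, and the others were not. Ppargc1a was lowest among the KO arrays in KO 1 (6.09) and highest in KO 3 (6.73). Prdm16 was lower in KO (-0.31, SE 0.195) and highest in WT 3. The Prdm16 KO mean (3.54) lay below the level filter, so it was tested only through its WT arrays (mean 3.84). Of the markers below the level filter, Ucp1 and Elovl3 were highest in WT 1 and Dio2 in KO 5. The part of these markers in the values of the oxidation genes was not tested.

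**Figure D4:**
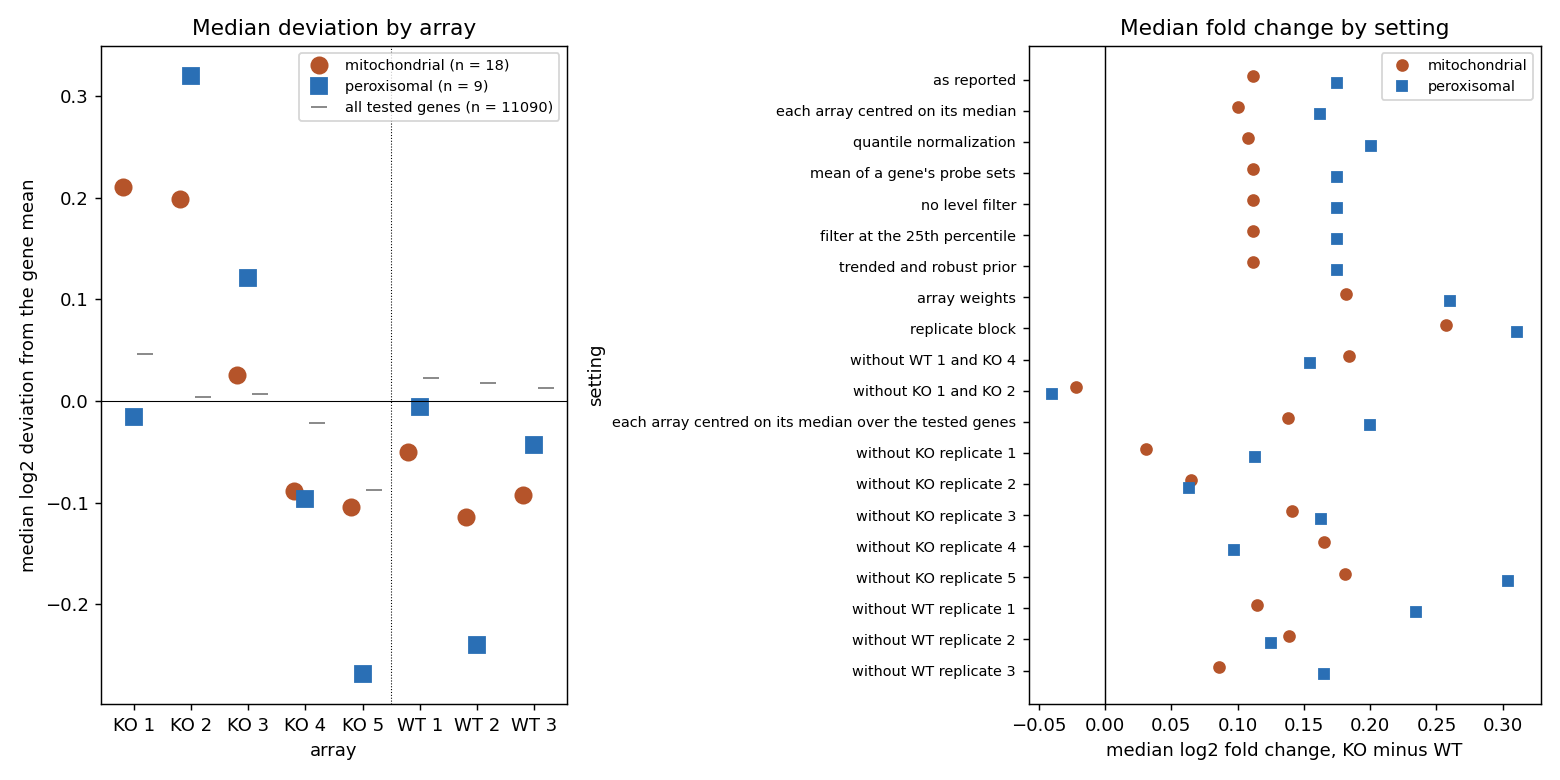
Left, the median log2 deviation from each gene's mean (y axis) by array (x axis) for 18 mitochondrial genes, 9 peroxisomal genes and all 11090 tested genes. Right, the median log2 fold change (x axis) of each compartment under each setting (y axis), positive everywhere except without KO 1 and KO 2 (-0.02 and -0.04).

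Of the other genes of the pathway none passed the adjusted threshold. Among acyl-CoA dehydrogenases outside the members and enzymes of odd-chain propionate, 8 of 11 tested were higher in KO (median 0.16), with Mcee, the methylmalonyl-CoA epimerase, at 0.42 (SE 0.166) and an unadjusted p under 0.05. Mcee stayed under that p in 3 of the 8 fits with 1 array left out. With the replicate block 5 of the 11 were under that p, against 18% of all genes. In the list of acyl-CoA entry and transport 5 of 10 were higher (median 0.01), and of 2 tested ketone body genes 1 was higher. Of 21 other peroxisomal enzymes 10 were higher and 11 lower. With the replicate block 6 of these were under an unadjusted p of 0.05 (18% of all genes), and without the block 3 (10.5% of all tested genes). There Dhrs4, a peroxisomal reductase, had a fold change of 0.32 (SE 0.139), and the thioesterases Acot3 and Acot4 had -1.37 (SE 0.324) and -0.87 (SE 0.297), each at an unadjusted p under 0.05. Without WT 1, which read 6.54 against 5.48 and 5.60 in the other WT arrays, Acot4 had -0.54, no longer under that p. Over the 8 fits with 1 array left out, Acot3 stayed under it in 8, Acot4 in 7 and Dhrs4 in 2. Acot3 read 3.07, 3.25, 4.10, 3.51 and 3.23 in KO 1 to KO 5, against 5.65, 4.25 and 4.51 in WT 1 to WT 3, without overlap (adjusted p = 0.226), and its KO mean (3.43) lay below the level filter.

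Peroxin genes, which build the organelle, had mostly negative fold changes. Of 13 tested, 2 were higher and 11 lower in KO (84.6%, against 55.2% of all tested genes), with a median fold change of -0.21. None had an unadjusted p under 0.05. The nearest were Pex3 (-0.34, SE 0.156), Pex14 (-0.36, SE 0.173) and Pex5 (-0.36, SE 0.178), which serve membrane assembly and import of matrix proteins, followed by the import receptor Pex7 (-0.34, SE 0.205). KO 5 was the lowest array for 7 of the 13 and WT 1 the highest for 6. Pex5 read 6.66 to 6.84 in KO, against 7.61, 6.89 and 6.84 in WT 1 to WT 3, and its fold change was -0.12 without WT 1.

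Of 17 tested regulators of the pathway 9 were higher and 8 lower. At an unadjusted p under 0.05 there were 2, both lower in KO. Of all tested genes 4.04% were higher and 6.46% lower at that p (10.5% in either direction). With the replicate block there were 4 regulators, where 18% of all genes were under that p. Pparg, the PPAR of adipocytes, read 10.27, 10.11, 10.36, 10.04 and 9.94 in KO 1 to KO 5, against 10.37, 10.74 and 10.73 in WT 1 to WT 3, all KO below all WT (-0.47, SE 0.147, adjusted p = 0.331). The coactivator Ppargc1b read 5.22, 4.98, 5.37, 5.13 and 5.62 in KO, against 6.21, 5.67 and 6.07 in WT, again without overlap (-0.72, SE 0.178, adjusted p = 0.254). Among PPAR targets outside oxidation 3 of 9 were higher and 6 lower. The 3 were Angptl4, a lipoprotein lipase inhibitor whose groups did not overlap (0.98, SE 0.213), Pdk4, which restrains pyruvate oxidation (0.67, SE 0.266), and the mitochondrial carrier Ucp3 (0.61, SE 0.205), each at an unadjusted p under 0.05, whereas Hilpda, an inhibitor of triglyceride lipolysis, had -0.53 (SE 0.188). Without WT 1, the highest array at 6.28, the Hilpda fold change was -0.33, no longer under that p. Over the 8 fits with 1 array left out, Angptl4 stayed under it in 8, Hilpda in 7, Ucp3 in 6 and Pdk4 in 2. The lowest Pdk4 fold change among these was 0.41, without WT 3. Markers of mitochondrial content outside the pathway, such as the outer-membrane channel Vdac1 (0.21) and citrate synthase (Cs, 0.16), were higher in 7 of 9 (median 0.16), close to the median of the mitochondrial oxidation genes, and their part in those values was not tested. Their mean level was 9.11 to 9.34 in KO and 9.11 to 9.29 in WT. Endothelial markers were lower in 5 of 6 (median -0.47), with means of 7.76 to 8.10 in KO and 8.03 to 8.43 in WT. At an unadjusted p under 0.05, 4 were lower and 1 higher, against 6.46% and 4.04% of all tested genes.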

How the data were processed

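Per the labels, RNA (200 ng per mouse) was hybridised to Affymetrix mouse gene arrays. The deposited table holds log2 values per probe set, made by the authors with RMA (background correction, normalization across arrays, probe summary); per the submitters' processing notes RMA and oligo were used, versions not given, while the series design text names Expression Console. They were used as deposited. Of 41345 probe sets 23521 have 1 symbol, 1814 several and 16010 none listed; 23328 were matched by Entrez identifier to GRCm38.p6. The brightest probe set of a gene by its mean over 8 arrays was kept (22180 genes), and the 11090 at or above the median mean were tested in limma 3.58.1 (R 4.3.3), KO against WT, two-sided. Exact two-sided permutation tests used the 56 divisions of 8 arrays (Python 3.11.15, scipy 1.17.1), with 0.0357 as the smallest p. The limma step was tested on simulated data. Named in full were members at an unadjusted p under 0.05, without overlap, with the largest changes or brightest of their role. Of the pathway lists, every gene at an unadjusted p under 0.05 was named. Other list genes named, among them the cell type markers, are examples. Members and lists were chosen with earlier results of these data known. Labels do not say what a replicate number stands for, so the block is an alternative. Deviations of same-numbered KO and WT arrays correlated at 0.133, 0.103 and 0.192 over the tested genes. Arrays of different numbers were not compared, so these values cannot show whether the numbers pair the arrays. Arrays carry no counts; their number limits the precision. Array medians were 2.93 to 3.12.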

Additional observations from a re-analysis of the deposited data

Results flagged for a closer look

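Cpt2 in KO 4 read 7.930, far below the other KO arrays (8.306 to 8.445), a gap of 0.730 of the group's whole range. It was the only one of 32 measured genes with such an array among the 5 KO mice, where chance gives about 1 in 20. KO 4 also carried the highest epididymal transcripts, and the part of these in the value was not tested. The 3 WT arrays are too few for such a check, so WT 1 in Ehhadh (9.79) was not assessed by it.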

How the results depend on the processing

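No member passed the adjusted threshold in any of 19 alternatives (smallest adjusted p 0.107), and 21 of 31 members kept their sign in all of them. The sign was kept in all 19 by Cpt1a, Acadm, Hadh, Etfdh, Acaa2, Acaa1b, Decr2 and Ehhadh. For Ehhadh, however, the fold change was -0.81 as reported and -0.03 without WT 1. Members at an unadjusted p under 0.05 numbered 5 as reported (10.5% of all tested genes) and 0 with arrays centred on all single-symbol probe sets (9.98%). They numbered 9 with quantile normalization (10.6%) and 9 with centring on the tested genes (10.5%, chosen after seeing the data). There were 3 with the filter at the 25th percentile (9.2%), 10 with array weights (16.9%) and 10 with the replicate block (18%). Without KO 1 and KO 2 there was only Crat, lower in KO (9.49%). When 1 array was left out there were 0 to 8 (6.72% to 14.4%). The cause was not tested. The mitochondrial median moved to 0.257 with the replicate block, whose fold change leaves out KO 4 and KO 5, which have no WT partner. It moved to -0.022 without KO 1 and KO 2, where the peroxisomal median was -0.040. The peroxisomal median was 0.311 with the block. With 1 array left out the medians were 0.031 (without KO 1) to 0.181 for mitochondrial and 0.063 to 0.304 for peroxisomal genes. With the block 2 genes of the whole table passed, with array weights 40, with a trended and robust prior 3, and without 1 array 0 to 5. Genes at an unadjusted p under 0.05 numbered 1164, and 1871 without the level filter (more genes tested), 1873 with array weights, 1997 with the block, 732 without WT 1 and KO 4 and 745 to 1596 without 1 array. With the block all 5 members stayed under an unadjusted p of 0.05 and Acaa2, Eci1, Abcd2, Hsd17b4 and Eci2 joined them. In the pathway lists all genes under that p remained so and 11 joined, and among markers only Egfl7 was lost. With 3 WT arrays, small differences near background, as in Acot1 and Hadhb, are uncertain.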

Other observations

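The genes named here were picked after their values were seen. Beside Ehhadh and Scp2, WT 1 was the highest array for 6 of 23 measured peroxisomal enzymes outside the members (18.1% of all tested genes were highest in WT 1), including Acot3 (5.65, next highest 4.51), Acot4 (6.54, next 5.60), Hacl1, the lyase of branched-chain alpha-oxidation (8.03, next 7.88), and catalase (Cat, 12.79, next 12.57), and for the peroxins Pex5 (7.61, next 6.89) and Pex11a, which drives peroxisome division (7.62, next 7.29). The elongase Elovl3 (4.31, next 2.59) was also highest there. Of the 31 tested members WT 1 was the highest array for 9. Beside Ehhadh and Scp2 these were the mitochondrial Cpt2, Acadvl, Acadsb, Echs1, Etfa and Acot2, and Crat. WT 1 was the lowest array for 3 members, Cpt1a, Hadh and Acaa2 (12.4% of all tested genes were lowest there). The same array carried seminal vesicle transcripts such as Svs2 (6.38, next 2.03), and their part in these values was not tested.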
